A study of Mus musculus with 6 samples.

Results

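The subcortical maternal complex is a protein assembly that forms beneath the cortex of the growing mouse oocyte from maternally supplied proteins, and it is needed for the first cleavages of the embryo. The genes described here are 10 maternal-effect and oocyte genes given by name: 5 of the complex and its cytoplasmic lattice partner (Khdc3, Ooep, Nlrp5, Tle6 and Padi6), the family relatives Khdc1a and Nlrp14, and the oocyte genes Zar1, Zp3 and Oosp1. Every row of the deposited table annotated to any of them was taken. Each of the 10 genes had 1 feature (an array's summary of the probes of a transcript), of 23521 features that carry exactly 1 gene symbol, and 0 features with several symbols named any of them.

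The cells were R1, an embryonic stem cell line derived from the inner cell mass of a male mouse embryo (129X1 x 129S1). All groups grew on gelatin in fetal bovine serum with LIF, the cytokine that sustains self-renewal. The untreated group had no addition, and the AA2G group was kept for 3 days with 0.74 mM (250 µg/ml) of AA2G, ascorbic acid 2-glucose, a vitamin C derivative. Each group had 3 cultures with 1 Mouse Gene 2.0 ST array each, all from 1 cell line, so the design asks how vitamin C changed the transcripts of this line, and a p-value covers no spread beyond that of its cultures.

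Within the complex, KHDC3 (also known as FILIA) and OOEP (FLOPED) carry KH-like domains of a kind that in other proteins binds RNA, NLRP5 (MATER) is a leucine-rich repeat protein of the NLRP family, and TLE6 is a member of the Groucho family. KHDC3 is also known from embryonic stem cells, where it acts in the response to DNA damage. PADI6 is a peptidylarginine deiminase family member required for the lattices of the egg cytoplasm. ZAR1 binds maternal mRNA, ZP3 is a glycoprotein of the zona pellucida, the coat of the egg, and OOSP1 is an oocyte-secreted protein.

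Of the 10 genes, Khdc3 and Nlrp14 rose with AA2G, by 1.89-fold and 1.85-fold, and the other 8 did not pass the test. The test was limma's moderated test with Benjamini-Hochberg adjustment over all 23521 features and a threshold of 0.05, and all changes are AA2G minus untreated on the log2 scale. The 2 calls were not equally firm. That of Khdc3 held with each array left out in turn, whereas that of Nlrp14 was lost with most single arrays left out. Both were lost when ordinary per-feature variances replaced the moderated ones. Over all features 0.608% were called higher and 0.761% were called in either direction, against 2 of the 10 genes. The genes, and the lists below, were chosen with earlier results of these data known, so such shares are not a test of them. The median change was 0.12 over the 10 genes, 7 of which were positive, and -0.01 over all features, of which 47.7% were positive. An unadjusted p under 0.05 gave the same count, 2 on the higher and 0 on the lower side. Over all 23521 features, 1095 on the higher and 1189 on the lower side reached it, the background for each such count below. For 4 of the 10 genes the 3 AA2G arrays lay wholly on one side of the 3 untreated arrays, above for Khdc3, Nlrp14 and Padi6 and below for Ooep; over all features this held for 15.7%.

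**Figure D1:**
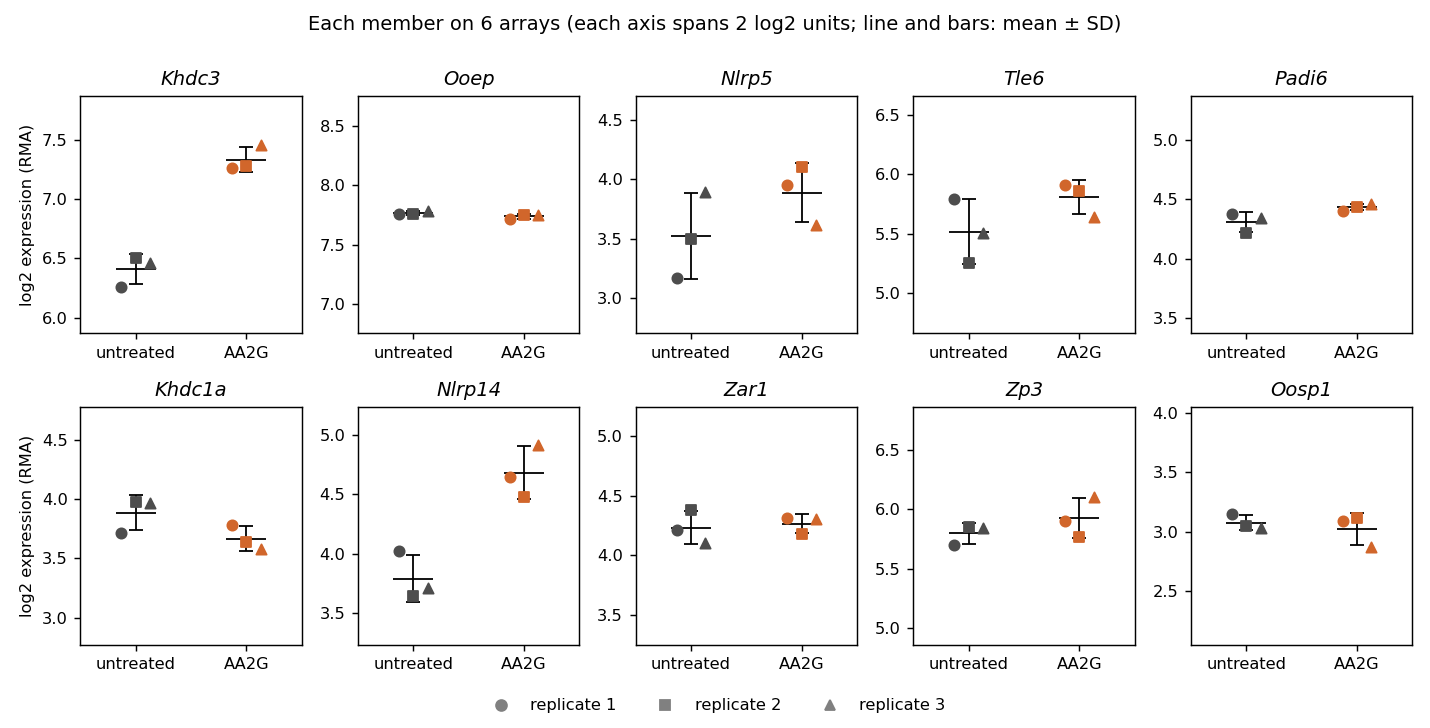
Log2 expression of each of the 10 genes on the 3 untreated (grey) and 3 AA2G (orange) arrays, with marker shapes for the replicate numbers and lines for mean ± SD (n = 3). Every axis spans 2 log2 units; Khdc3 and Nlrp14 show separated groups, whereas Ooep lies between 7.72 and 7.79 on all 6 arrays.

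The values are those of features on an array without detection calls, so a low one cannot be told from background, and no gene's level is set against another's. Means over the 6 arrays exceeded 4.99, the percentile 40 of all features tested, for the 4 genes Khdc3, Ooep, Tle6 and Zp3. The other 6 lay below it, and for these a change on the log2 scale can understate a fold. In cultures such as these, more cells with a transcript and more transcript per cell cannot be told apart.

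The regions before the starts of the KH-domain genes are shown first, because Khdc3 and Ooep encode partners of the same complex but gave different values, together with that of Nlrp4f, a further NLRP gene that rose. Each is the stretch of 250 bases before a RefSeq transcript start in GRCm38.p6, written 5′ to 3′ on the strand of the gene, with CG dinucleotides in capitals, the sites at which DNA methylation is mainly found in mammals. The Khdc3 window lies at chr9:73102148-73102397 on the plus strand, the Ooep window at chr9:78378589-78378838 on the minus strand and the Nlrp4f window at chr13:65205717-65205966 on the minus strand.
Khdc3: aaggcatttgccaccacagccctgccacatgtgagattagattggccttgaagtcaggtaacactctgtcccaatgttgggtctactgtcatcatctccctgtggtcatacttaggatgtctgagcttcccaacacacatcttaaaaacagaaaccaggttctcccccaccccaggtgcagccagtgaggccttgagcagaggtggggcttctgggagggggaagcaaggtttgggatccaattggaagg
Ooep: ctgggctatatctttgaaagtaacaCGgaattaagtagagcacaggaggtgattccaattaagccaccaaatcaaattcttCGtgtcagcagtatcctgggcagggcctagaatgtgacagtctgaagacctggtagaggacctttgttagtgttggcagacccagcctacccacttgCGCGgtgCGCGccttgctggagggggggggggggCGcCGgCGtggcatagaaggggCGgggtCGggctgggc
Nlrp4f: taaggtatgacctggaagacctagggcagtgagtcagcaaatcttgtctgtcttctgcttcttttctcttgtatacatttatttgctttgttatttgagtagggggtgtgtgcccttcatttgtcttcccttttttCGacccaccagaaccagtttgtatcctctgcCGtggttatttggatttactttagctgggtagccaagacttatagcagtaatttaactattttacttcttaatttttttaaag
The Khdc3 window has 0 CG dinucleotides. Of the 32851 windows that RefSeq lists, 7.9% have 0, and the median is 6. The Ooep window has 11 and that of Nlrp4f has 2. The same stretch has 14 before Sohlh2 and 20 before Dazl, germ cell genes whose rises are given below. No methylation was measured, and any part of these sequences in the changes was not tested.

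Windows were found for 8 of the 10 genes, as 10 windows because Nlrp5 and Tle6 have 2 listed starts each; Khdc1a and Nlrp14 are not listed. CG counts were 17 and 1 at the starts of Tle6, 7 and 1 at those of Nlrp5, 9 at Zar1, 5 at Zp3, 4 at Oosp1 and 1 at Padi6. Both strands were searched for CACGTG, an E-box bound by MAX and its partners, and for GCGGGAA, the core of an E2F site; factors of both kinds belong to a Polycomb complex known to repress germline genes. CACGTG was in 2 of the 10 windows, with 2 matches at a start of Tle6 and 1 at Zp3, against 6.0% of all windows. GCGGGAA was in 1 window, at a start of Nlrp5, against 3.8% of all windows. These matches describe the letters of the windows, and Tle6, Zp3 and Nlrp5 were not among the genes that passed.

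Khdc3 (Entrez Gene 66991, chromosome 9) read 6.26, 6.50 and 6.46 on the untreated arrays and 7.26, 7.28 and 7.45 on the AA2G arrays. The lowest AA2G array lay above the highest untreated array, and the arrays of each group lay close together, at 6.41 ± 0.13 and 7.33 ± 0.11 (SD, n = 3). The rise was 0.92 ± 0.09 (SE; limma adjusted p = 0.00530), a fold of 1.89 with a 95% interval from 1.63 to 2.20. With each array left out in turn the adjusted p stayed between 0.0173 and 0.0379. It was 0.158 when ordinary per-feature variances replaced the moderated ones, a setting under which 13 features passed in all.

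Ooep (67968), whose product binds in the same complex and whose gene also lies on chromosome 9, read 7.76, 7.76 and 7.79 without AA2G and 7.72, 7.75 and 7.75 with it. These groups did not overlap, but the difference of -0.03 ± 0.07 (SE) did not pass (limma adjusted p = 0.944). Its interval from -0.18 to 0.12 does not reach the change of Khdc3. The spread between cultures was small for this gene, with an SD of 0.02 in each group.

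Nlrp5 (23968) read 3.17, 3.50 and 3.89 without AA2G and 3.95, 4.10 and 3.61 with it. The groups overlapped, since the lowest AA2G array was below the highest untreated array. The difference of 0.37 ± 0.19 (SE; limma adjusted p = 0.600) had a wide interval, from -0.07 to 0.81, which holds both no change and rises of up to nearly the size fitted for Khdc3. Single arrays moved this value, to 0.19 without untreated replicate 1 and 0.55 without untreated replicate 3, and array weights gave 0.06. Tle6 (114606) read 5.80, 5.25 and 5.50 without AA2G and 5.91, 5.86 and 5.64 with it, and its groups overlapped in the same way. It was at 0.29 ± 0.14 (SE; limma adjusted p = 0.571, interval -0.04 to 0.61), and at 0.16 without untreated replicate 2 and 0.43 without untreated replicate 1.

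Padi6 (242726) read 4.37, 4.22 and 4.34 without AA2G and 4.41, 4.44 and 4.46 with it. The AA2G arrays were all above the untreated ones, by a small margin, and the difference of 0.12 ± 0.07 (SE) did not pass (limma adjusted p = 0.667, interval -0.05 to 0.29); without untreated replicate 2 it was 0.075. Of the 5 genes of the complex and its lattice partner, then, 1 rose and 4 did not pass, with Nlrp5, Tle6 and Padi6 on the positive side.

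Nlrp14 (76858, chromosome 7), an NLRP gene of germ cells needed for fertility, read 4.02, 3.64 and 3.71 without AA2G and 4.65, 4.48 and 4.92 with it. The groups did not overlap, and the means were 3.79 ± 0.20 and 4.68 ± 0.22 (SD, n = 3). The rise was 0.89 ± 0.14 (SE; limma adjusted p = 0.0316), a fold of 1.85 with a 95% interval from 1.49 to 2.31, on a feature below the percentile given above. Its size changed little between settings, from 0.77 to 1.03, but the call did not hold in all of them. The adjusted p was 0.111 without untreated replicate 2, 0.174 without untreated replicate 3, 0.0920, 0.0529 and 0.0969 when replicates 1, 2 and 3 of the AA2G group were left out, and it was 0.0374 without untreated replicate 1. It was also lost when all 41345 features of the table were tested (0.115) and with ordinary variances (0.297).

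Khdc1a (368204), a KH-domain gene of the oocyte and early embryo, read 3.72, 3.97 and 3.97 without AA2G and 3.78, 3.64 and 3.58 with it. The groups overlapped through untreated replicate 1 and AA2G replicate 1, and the difference of -0.22 ± 0.10 (SE) did not pass (limma adjusted p = 0.518, interval -0.45 to 0.00). The KH-domain genes therefore gave 1 rise, that of Khdc3, with Ooep and Khdc1a below 0 and not past the threshold.

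**Figure D2:**
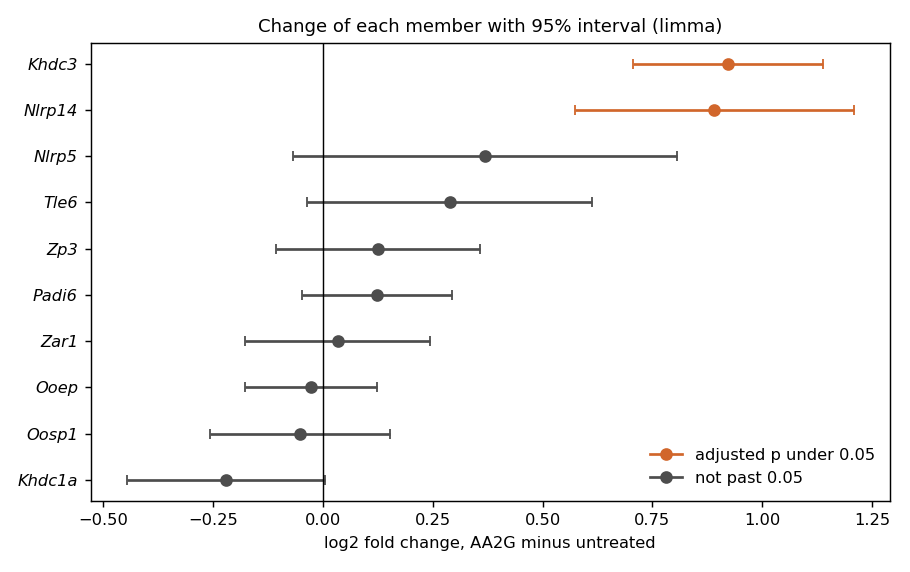
Log2 fold change of each of the 10 genes with its 95% interval from limma (n = 3 arrays a group); orange marks an adjusted p under 0.05. The intervals of Khdc3 and Nlrp14 start at 0.71 and 0.57, and those of the other 8 genes include 0.

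The oocyte genes outside the complex and its families showed no call. Zar1 (317755) read 4.21, 4.38 and 4.10 without AA2G and 4.31, 4.18 and 4.30 with it, a difference of 0.03 ± 0.09 (SE; limma adjusted p = 0.950). Zp3 (22788) read 5.70, 5.85 and 5.84 against 5.90, 5.77 and 6.10, a difference of 0.13 ± 0.10 (limma adjusted p = 0.764) that ranged from 0.036 to 0.20 with an array left out, lowest without AA2G replicate 3 and highest without AA2G replicate 2. Oosp1 (170834) read 3.15, 3.05 and 3.03 against 3.09, 3.12 and 2.87, a difference of -0.05 ± 0.09 (limma adjusted p = 0.910). Groups overlapped for all 3 genes, and their intervals ran from -0.18 to 0.24 for Zar1, -0.11 to 0.36 for Zp3 and -0.26 to 0.15 for Oosp1. The interval of Zp3 leaves out a change of the measured value as large as that of Khdc3. Its feature, at a mean of 5.86 over the 6 arrays, has no detection call, so the same is not shown for the transcript. The features of Zar1 and Oosp1 lay below the percentile given above, where a log2 change can understate a fold. Their intervals therefore cannot exclude such a change in the transcript.

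Among the paralogues of the 10 genes the test called a single feature, that of the NLRP gene Nlrp4f. Of 37 features of 34 measured relatives, 1 was called higher, 0 were called lower and 36 did not pass, a share of 2.70% called against 0.761% of all features. Their median was 0.03, and an unadjusted p under 0.05 was reached by 4 features on the higher and 1 on the lower side. The riser was Nlrp4f, an NLRP gene whose product has been found with the maternal complex, which read 3.71, 3.99 and 3.67 without AA2G and 4.41, 4.50 and 4.42 with it. Its groups did not overlap, and it rose by 0.66 ± 0.10 (SE; limma adjusted p = 0.0286). This call too was lost with most single arrays left out, at 0.104 without untreated replicate 1, 0.150 without untreated replicate 3, 0.0843, 0.136 and 0.116 when replicates 1, 2 and 3 of the AA2G group were left out, and at 0.0996 over all features of the table and 0.243 with ordinary variances. It held without untreated replicate 2 (0.0155).

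The next smallest p-values in the families also belonged to NLRP genes. Nlrp9b was at 4.45 ± 0.20 in untreated and 4.93 ± 0.17 in AA2G cultures (SD, n = 3), with groups that did not overlap and an adjusted p of 0.190 in limma. Nlrp4b had a feature at 0.51 ± 0.16 (SE; limma adjusted p = 0.313), also without overlap, while its other feature was at -0.29 ± 0.15. Nlrp9c was at 0.40 ± 0.15 (limma adjusted p = 0.399). Of the 17 features of the 16 NLRP relatives, 9 were positive and the median was 0.03. NLRP genes of the clustered 4 and 9 groups resemble each other closely, so their probes may share signal, and this was not tested. Nlrp2, of the complex's wider set of partners, was at -0.04 ± 0.12.

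**Figure D3:**
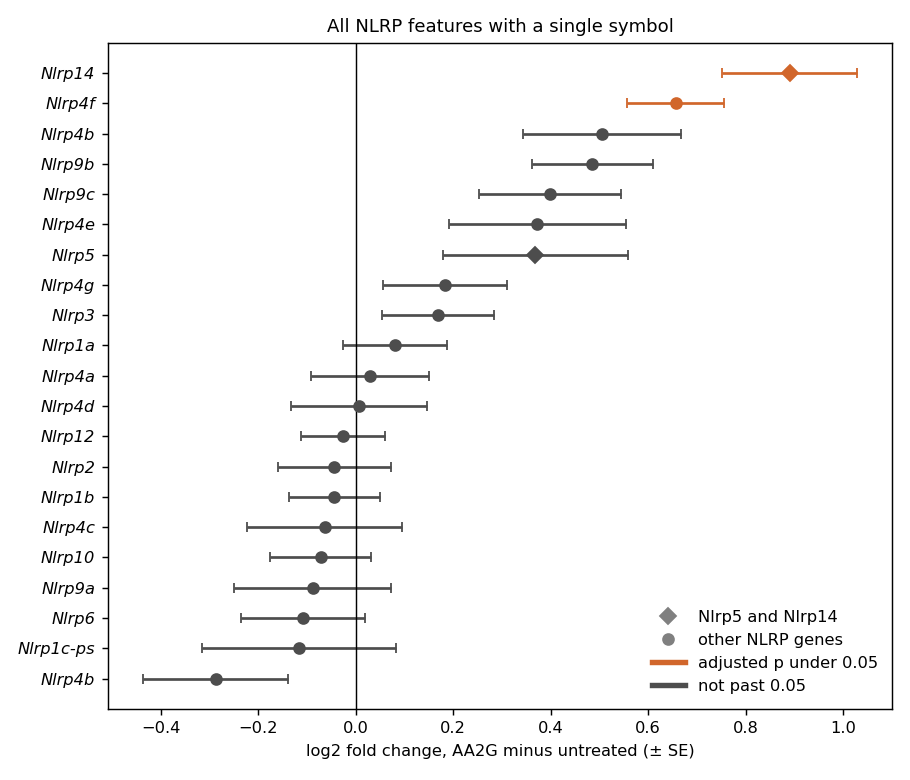
Log2 fold change ± SE of all 21 NLRP features (20 genes) with a single symbol, diamonds for Nlrp5 and Nlrp14 and circles for the rest; orange marks an adjusted p under 0.05. Nlrp14 at 0.89 and Nlrp4f at 0.66 head the order, and the remaining 19 features did not pass, the 2 features of Nlrp4b lying on opposite sides of 0.

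In the other families, 0 features were called. The KH-domain relatives Khdc1b, Khdc1c and Dppa5a, an embryonic stem cell gene next to Ooep, were at -0.02 ± 0.14, 0.18 ± 0.18 and -0.07 ± 0.08 (SE). The zona pellucida genes Zp1 and Zp2 were at 0.03 ± 0.11 and 0.07 ± 0.08. Zar1l, the relative of Zar1, was at 0.20 ± 0.11, and Oosp3 at 0.17 ± 0.07, with groups that did not overlap but an adjusted p of 0.515 in limma. Among the Groucho relatives of Tle6 the largest difference was that of Tle4, at -0.38 ± 0.14 (limma adjusted p = 0.402). The relatives of Padi6 ran from -0.11 to 0.08 over 4 features of Padi2, Padi3 and Padi4.

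The lists of further oocyte and maternal genes are read against the 0.761% of all features called in either direction. Of 17 genes for oocyte transcription and chromatin, 1 rose (5.88%), 0 fell and 16 did not pass, and the median was 0.04. The riser was Sohlh2, a transcription factor of germ cells, from 8.07 ± 0.11 to 10.5 ± 0.03 (SD, n = 3), a change of 2.45 ± 0.08 (SE; limma adjusted p = 2.25e-05). Taf7l, a testis and oocyte relative of a TFIID subunit, was at 0.58 ± 0.13 without passing (limma adjusted p = 0.125), Lhx8 at -0.25 ± 0.12 and Obox2 at 0.13 ± 0.09. Figla and Nobox, factors known to drive oocyte genes that include Zp3, were at 0.06 ± 0.09 and 0.11 ± 0.09.

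Of 31 features of 29 genes for oocyte signals, meiotic arrest and maternal mRNA, 1 rose (3.23%), 0 fell and 30 did not pass, with a median of -0.01. The riser was Dazl, which encodes a germ cell protein that binds mRNA, from 7.06 ± 0.24 to 9.43 ± 0.19 (SD, n = 3; limma adjusted p = 0.000284). Fbxo43, an inhibitor of meiotic exit, was at -0.29 ± 0.10 (SE), the meiotic kinase Wee2 at -0.28 ± 0.09 and the germ cell helicase Ddx4 at -0.17 ± 0.07, and these 3 did not pass. Of 36 features of 31 other maternal-effect genes, 0 were called in limma, an unadjusted p under 0.05 was reached by 1 on the higher and 2 on the lower side, and the median was -0.03. The smallest p-values were those of the methyltransferase cofactor Dnmt3l at 0.31 ± 0.08 (adjusted p = 0.161), the imprint factor Zfp57 at -0.26 ± 0.09 and the histone reader Spin1 at -0.19 ± 0.07, with further features of Spin1 at -0.09 and 0.11. Kmt2d was at -0.19 ± 0.08.

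**Figure D4:**
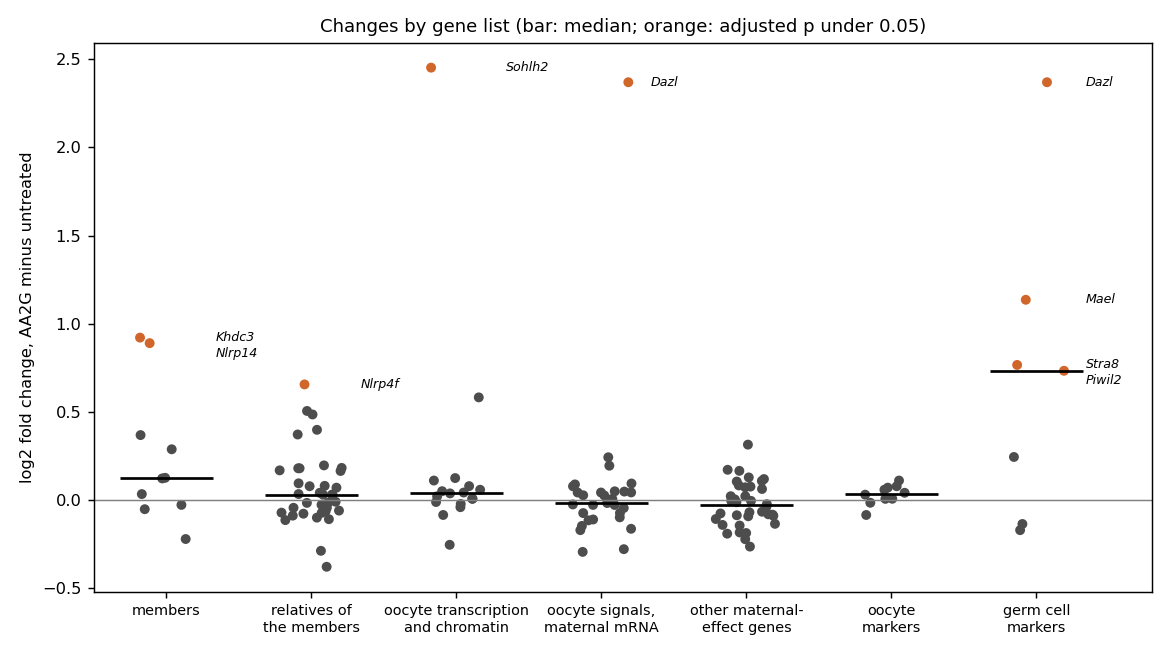
Log2 fold change (AA2G minus untreated) of every measured feature of the 10 genes (labelled members), of their relatives, of 3 further oocyte and maternal lists and of oocyte and germ cell markers; bars are medians and orange marks an adjusted p under 0.05. Most features lie near 0 in each list except the germ cell markers, and the labelled genes are those called.

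Markers that define cell types were read beside these results. The 12 stem cell markers were all above the percentile 40 and 0 were called in limma, while Klf4, Nanog and Pou5f1 had an unadjusted p under 0.05 at -0.31, -0.17 and -0.16. Of these 12, 10 were negative, the median was -0.10, and their mean per array was 10.06 to 10.09 without and 9.96 to 9.99 with AA2G, so the groups did not overlap; the part of this in the changes of Khdc3 and Nlrp14 was not tested. Of the 10 oocyte markers, among them Gdf9, Bmp15, Figla, Nobox, Zp1 and Mos, 0 were called and 0 passed an unadjusted p under 0.05, 8 lay below the percentile 40, and their mean per array was 4.37 to 4.44 without and 4.42 to 4.45 with AA2G. No value of a marker can be called 0 on this array. Of 7 measured germ cell markers 4 rose (57.1%, against 0.761% of all features called), namely Dazl, Mael, Stra8 and Piwil2. Dazl was also counted in a list above. Sycp1, Tex101 and Ddx4 did not pass, at 0.24, -0.14 and -0.17, and for Ddx4 every AA2G array lay below every untreated one. The mean of all 7 per array was 6.26 to 6.41 without AA2G and 6.92 to 7.10 with it, so it was higher in the AA2G group, as Khdc3 and Nlrp14 were. The part of this in the changes described was not tested. In the lists for granulosa cells (9 features), 2-cell-like cells (11), primitive endoderm (10), trophoblast (11) and fibroblast feeders (11), 0 were called in limma, and each list had at most 3 features at an unadjusted p under 0.05. With 3 arrays in each group the smallest p of an exact permutation test is 0.1, so no single gene was tested that way.

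**Figure D5:**
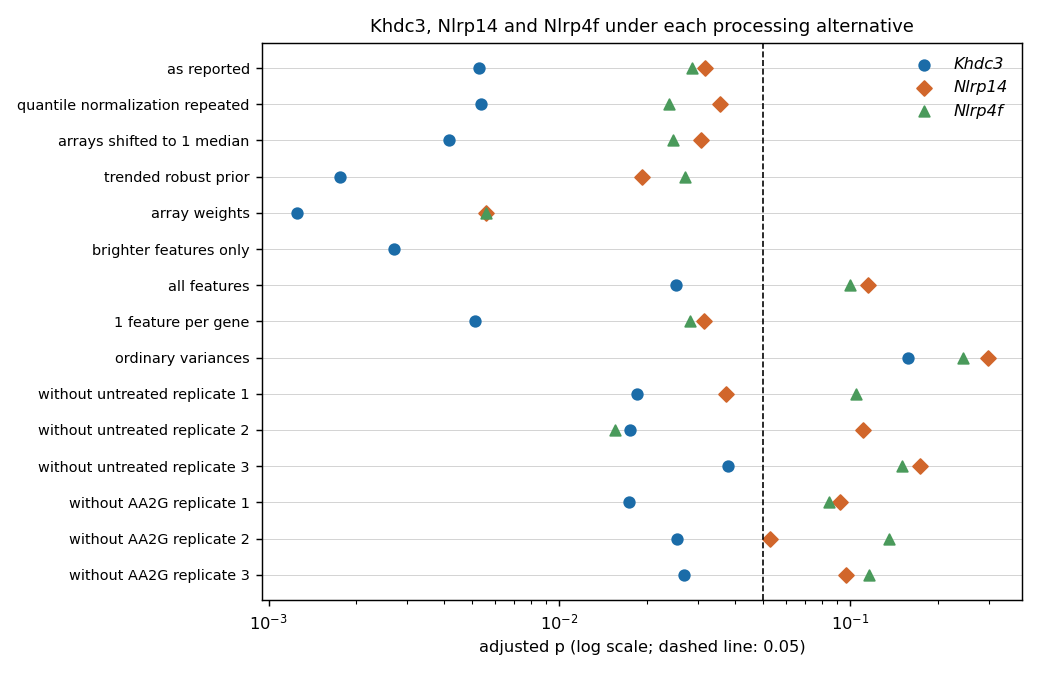
Adjusted p (log scale) of Khdc3 (circles), Nlrp14 (diamonds) and Nlrp4f (triangles) as reported and under processing alternatives, with a dashed line at 0.05. The replicate block is not shown here, and its values are given with the dependence on processing. Khdc3 lies below 0.05 except with ordinary variances, at 0.158; Nlrp14 and Nlrp4f cross the line in several settings, and neither has a point for brighter features only because both features are dim.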

How the data were processed

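Total RNA of 6 cultures was measured on Affymetrix Mouse Gene 2.0 ST arrays. The deposited log2 values were made by the authors per the submitters' processing notes, which name RMA and Affymetrix Expression Console; versions, annotation release and array genome build: not given in the sources used here. RMA equalises the distributions of the arrays, and an array gives no read depth, so the number of arrays limits the precision.

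Features were named through the platform annotation, and 23328 of 23521 single-symbol features matched RefSeq genes of GRCm38.p6 by Entrez Gene identifier. AA2G was compared with untreated cells in limma 3.58.1 (R 4.3.3; lmFit, eBayes, two-sided, no covariate) over all 23521 features, a procedure tested on simulated data. Of the features, 1814 with several symbols and 16010 with none were left out. Lists are described by counts and medians, and entries with an older symbol were renamed through RefSeq. Named genes are the 10 genes, every called gene of a list and up to 4 genes of each list with the smallest p; markers, the other relatives and the oocyte factors were added after their values were seen. The genes and lists were chosen with earlier results of these data known. Motifs were searched in RefSeq sequence. Alternatives were other normalization, priors, weights, filters, a replicate block and leaving out each array.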

Additional observations from a re-analysis of the deposited data

How the results depend on the processing

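The number of features called over the whole table was 179 as reported, 277 with a trended robust prior, 496 with array weights, 13 with ordinary variances, and 64 to 131 with an array left out (64 without untreated replicate 3, 98 and 101 without untreated replicates 1 and 2, 131, 89 and 88 without AA2G replicates 1, 2 and 3). Of the 10 genes, 2 were called as reported, 1 with the replicate number as a block, 1 with brighter features only, 1 with all features of the table, 0 with ordinary variances, and 1 or 2 with an array left out. Over the family and oocyte lists, markers aside, 3 features were called as reported and 1 with ordinary variances. Under the replicate block the adjusted p in limma was 0.0225 for Khdc3 and 0.0643 for Nlrp14, and 155 features were called. The labels do not say what a shared number stands for, and deviations from the group means correlated at 0.23, 0.22 and 0.02 for numbers 1, 2 and 3, across features, so the numbers were not taken as pairs, although each array correlated best with its own number. Of 144 values of the 10 genes under 15 settings, 133 kept their direction and their side of the threshold, 9 lost a call and 2 changed sign. Only Khdc3 and Nlrp14 had a call to lose, so most of these values could not lose one. Khdc3 kept its call in 14 of 15 settings and Nlrp14 in 6 of 14. The signs that turned were those of Zar1 and Oosp1, which ranged with an array left out from -0.029 to 0.11 and from -0.10 to 0.027. For 16 other named genes, 225 of 233 values were alike and 8 lost a call. Only Sohlh2, Dazl and Nlrp4f had a call to lose there, and they lost it in 0, 1 and 7 settings. Nlrp14 and 5 others of the 10 genes, and some of the 16 other named genes such as Nlrp4f, have no value with brighter features only. Their features are dim, and signal near background limits what can be said of them.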

Other observations

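The protein-coding genes around the 10 genes were read in RefSeq order, 5 on each side. Of 100 such genes, some of them relatives named above, 91 had a single-symbol feature, 100 features in all. Limma called 0 of these in either direction, and the median was 0.01. An unadjusted p under 0.05 was reached by 5 on the higher and 2 on the lower side. Over all 23521 features these counts were 1095 and 1189. Next to Khdc3, Rab27a, a vesicle transport GTPase, was at 0.17 ± 0.09 (SE; limma adjusted p = 0.627), and Rsl24d1, a ribosome biogenesis factor, had a feature at -0.08 ± 0.12. Next to Ooep, Dppa5a was at -0.07 ± 0.08 and Ddx43 at -0.05 ± 0.09. Around Nlrp14 lie olfactory receptor genes, of which the nearest, Olfr715b and Olfr715, were at 0.26 ± 0.18 and -0.02 ± 0.13. The smallest p among all these neighbours was that of Olfml1, the gene 5 positions from Nlrp14, at 3.99 ± 0.14 in untreated and 4.51 ± 0.15 in AA2G cultures (SD, n = 3), and its adjusted p of 0.0921 in limma did not pass.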
